A study of Mus musculus with 12 samples.

Results

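Signals of 6 immune genes were followed across sorted mouse T cells: the type 2 cytokines Il4, Il5 and Il13, the cytokines Il3 and Il6, and the transcription factor Gata3. The genes were listed by name, and each was read at its probe with the highest mean over the 12 arrays. Each gene had a single probe on the array, and all 6 passed the filter on dim probes, so they are 6 of the 12119 genes tested. The labels give 4 groups of 3 arrays. Ctrl Treg and CKO Treg are Foxp3+ CD4+ T cells, titled pTreg in the labels, that were sufficient for or deficient in Blimp1, the repressor encoded by Prdm1. Ctrl Teff and CKO Teff are the matching Foxp3- CD4+ effector T cells.

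All 12 samples were made the same way. Naive CD44low cells of both genotypes, from C57BL/6 Foxp3-GFP reporter donors, were mixed in equal parts and given to RAG1-/- mice. The cells were recovered 6 to 8 weeks later and sorted by Foxp3, CD4 and an allotype marker. Their source was pooled spleen, mesenteric lymph nodes and lamina propria of the large intestine, and the stated age is 8 to 12 weeks. They were then stimulated for 4 hours with PMA and ionomycin, agents that bypass the T cell receptor. RAG1-/- hosts lack T and B cells of their own and keep innate cells such as basophils, mast cells, neutrophils and natural killer cells. Which Cre line deleted Blimp1 is not stated in the labels. Nor do they say whether the 3 arrays of a group came from different mice, so each p-value reflects only how these samples spread, which may be technical.

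IL-4, IL-5 and IL-13 are the hallmark cytokines of T helper 2 cells, and GATA3 is the transcription factor that opens and maintains their genes in that lineage. IL-3 and GM-CSF, the product of Csf2, act on haematopoietic cells and are released by activated T cells of several lineages. IL-6 is made mainly by myeloid, stromal and B cells, and basophils and mast cells can make both IL-4 and IL-6. Treg cells, above all those of the intestine, also use GATA3, and Blimp1 is known for driving Il10 in them. In a bulk sample, fewer cells of a type and less RNA per cell cannot be told apart.

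In the RefSeq annotation of mouse build GRCm38.p6, Il4, Il13, Il5 and Il3 lie on chromosome 11 in a cluster that also holds Csf2. Il4 spans chr11:53612460-53618665, Il13 chr11:53631323-53634702, Il5 chr11:53720794-53725103 and Il3 chr11:54265085-54267279. Il6 lies at chr5:30013114-30019975 and Gata3 at chr2:9857078-9887953. The 250 bases before the outermost RefSeq start are shown for the 4 members of the cluster, whose means were all lower in Treg than in Teff, and for Il6, which lies outside it. Capitals mark 3 motifs searched on both strands, namely GATAA, the core letters of a GATA factor site, GGAAA, the core of an NFAT site, and TGANTCA, an AP-1 site. Matches on the other strand are in capitals too, and none of the motifs overlap in these windows. PMA and ionomycin switch on AP-1 and NFAT. The Il4 window lies at chr11:53618666-53618915 on the minus strand, Il13 at chr11:53634703-53634952 (minus), Il5 at chr11:53720544-53720793 (plus), Il3 at chr11:54267280-54267529 (minus) and Il6 at chr5:30012864-30013113 (plus).
Il4: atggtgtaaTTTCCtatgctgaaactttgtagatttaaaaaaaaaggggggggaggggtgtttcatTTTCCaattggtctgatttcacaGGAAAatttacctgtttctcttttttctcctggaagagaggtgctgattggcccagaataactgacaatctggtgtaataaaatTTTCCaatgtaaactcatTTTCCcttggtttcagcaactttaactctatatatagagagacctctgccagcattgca
Il13: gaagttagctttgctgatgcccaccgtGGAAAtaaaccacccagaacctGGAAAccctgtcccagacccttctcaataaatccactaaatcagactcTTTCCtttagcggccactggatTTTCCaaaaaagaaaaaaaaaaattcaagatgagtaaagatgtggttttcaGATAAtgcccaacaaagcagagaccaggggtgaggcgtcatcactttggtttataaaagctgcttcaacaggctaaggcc
Il5: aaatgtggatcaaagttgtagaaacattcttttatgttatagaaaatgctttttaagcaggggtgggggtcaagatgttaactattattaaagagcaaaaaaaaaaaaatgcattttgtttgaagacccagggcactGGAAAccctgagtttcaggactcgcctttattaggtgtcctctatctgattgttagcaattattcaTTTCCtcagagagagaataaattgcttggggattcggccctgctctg
Il3: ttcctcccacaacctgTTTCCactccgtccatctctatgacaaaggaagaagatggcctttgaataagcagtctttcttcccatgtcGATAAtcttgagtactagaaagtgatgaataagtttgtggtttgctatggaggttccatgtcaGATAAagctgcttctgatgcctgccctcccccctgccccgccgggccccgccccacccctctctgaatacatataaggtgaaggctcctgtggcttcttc
Il6: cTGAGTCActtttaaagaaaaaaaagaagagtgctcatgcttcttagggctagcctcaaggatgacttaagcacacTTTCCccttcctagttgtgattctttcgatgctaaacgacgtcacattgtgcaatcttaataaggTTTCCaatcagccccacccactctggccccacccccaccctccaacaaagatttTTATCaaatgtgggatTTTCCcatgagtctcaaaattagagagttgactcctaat

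The Il4 window held 5 GGAAA motifs and neither of the others. The Il13 window held 4 GGAAA and 1 GATAA, and of the 3 motifs the Il5 window held 2 GGAAA alone. Other forms of a GATA site, such as GATAG, were not searched, so a window without GATAA may still hold such a site. The Il3 window held 2 GATAA and 1 GGAAA, and the Il6 window had 3 GGAAA, 1 GATAA and 1 TGANTCA. Of 32851 RefSeq promoter windows of the same length, 55.6% held GGAAA, 22.6% GATAA and 6.75% TGANTCA. These are matches of letters, and no match here speaks of a factor's binding. The RefSeq start of Gata3 in the promoter table is not its outermost one and is not shown.

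Array medians lay between 4.66 and 4.68 on the log2 scale. Foxp3 averaged 8.02 and 8.05 in Ctrl and CKO Treg and 4.58 and 4.64 in Ctrl and CKO Teff. The Prdm1 signal was higher on the arrays labelled CKO, with means of 9.04 against 5.77 in Treg and 8.26 against 4.92 in Teff. Where that probe lies relative to the deleted part is not given, so it does not check the labels, and CKO below means the arrays labelled CKO. The mean of 8 T cell markers lay between 9.45 and 9.64 in CKO Teff, below its range of 9.91 to 10.07 in Ctrl Teff, and was 9.51 to 9.86 in CKO Treg and 9.81 to 10.35 in Ctrl Treg. Its part in the genotype differences was not tested. The mean of 12 basophil and mast cell markers was 8.51 and 8.12 on CKO Teff 1 and 2 and between 5.01 and 6.24 on the other 10 arrays. These 2 arrays stand apart, and the Teff results that rest on them are also given without them. CKO Teff is then 1 array, assumed to vary like the other groups, so the differences are values with no test. With 3 arrays a group, precision is limited by their number.

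No member passed the test in any comparison (limma, Benjamini-Hochberg adjusted p under 0.05 over all 12119 genes). Il13 and Gata3 nevertheless separated all 6 Treg arrays from all 6 Teff arrays, in opposite directions. Il4, Il5, Il13 and Il6 varied among the 3 CKO Teff arrays more than at least 99% of the genes tested in that group. Such ranks of spread, here and below, take in bright and dim genes alike and were not matched for intensity.

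**Figure D1:**
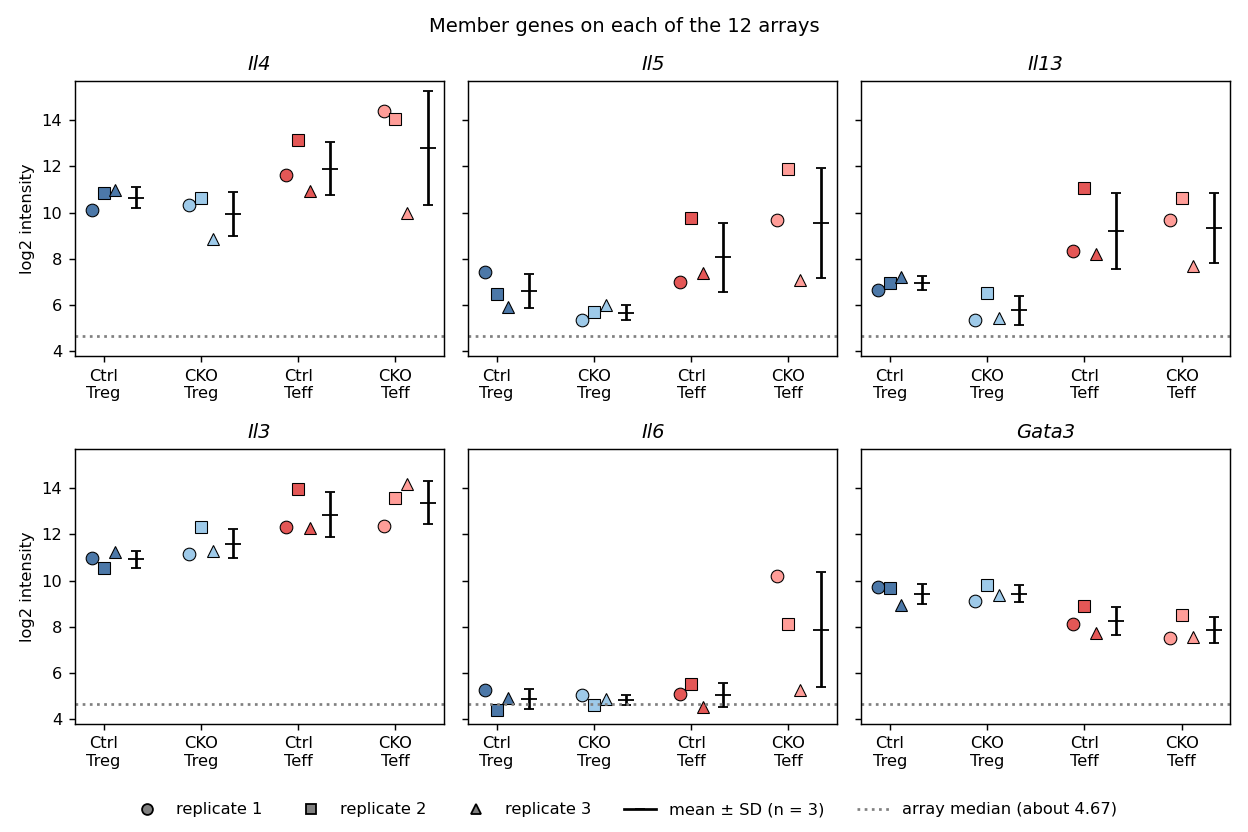
Log2 intensity of each member on each array, by group (Ctrl Treg, CKO Treg, Ctrl Teff, CKO Teff); symbols mark the replicate number, bars the mean ± SD of 3 arrays and the dotted line the array median. Il13 is lower on every Treg array than on any Teff array, Gata3 is higher, and Il4, Il5 and Il6 of CKO Teff reach their lowest value on replicate 3.

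Il4, which drives T helper 2 differentiation and switching to IgE, read 10.13, 10.84 and 10.99 on Ctrl Treg arrays 1 to 3 and 10.32, 10.64 and 8.86 on CKO Treg. In Teff it read 11.62, 13.17 and 10.93 in Ctrl and 14.42, 14.04 and 9.98 in CKO. CKO Teff 1 and 2 were the highest of all 12 arrays, while CKO Teff 3 lay within the range of the Treg arrays. The group means rank as CKO Treg (9.94 ± 0.95), Ctrl Treg (10.65 ± 0.46), Ctrl Teff (11.91 ± 1.14) and CKO Teff (12.81 ± 2.46; SD, n = 3 each). Each neighbour in that order overlapped the next. CKO minus Ctrl was −0.71 ± 1.04 (SE) in Treg and 0.91 ± 1.04 in Teff, both with an adjusted p of 1.00 by limma.

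Il5, the growth and survival cytokine of eosinophils, read 7.42, 6.47 and 5.93 in Ctrl Treg and 5.33, 5.70 and 6.00 in CKO Treg. It read 7.01, 9.78 and 7.40 in Ctrl Teff and 9.69, 11.89 and 7.10 in CKO Teff. Array 2 was the highest of both Teff groups, and the lowest Teff values lay below the top Ctrl Treg value. The means were 6.61 ± 0.75 and 5.68 ± 0.33 in Ctrl and CKO Treg and 8.06 ± 1.50 and 9.56 ± 2.39 in Ctrl and CKO Teff. From the lowest, the order was CKO Treg, Ctrl Treg, Ctrl Teff and CKO Teff, and each group overlapped the next. The genotypes overlapped in both cell types, with differences of −0.93 ± 1.05 in Treg and 1.50 ± 1.05 in Teff (SE, limma adjusted p = 1.00 for both).

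Il13, which acts on epithelium and smooth muscle, read 6.66, 6.97 and 7.24 in Ctrl Treg and 5.37, 6.51 and 5.46 in CKO Treg. Teff values were 8.33, 11.08 and 8.20 in Ctrl and 9.68, 10.65 and 7.68 in CKO. All 6 Treg arrays lay below all 6 Teff arrays, with a gap of 0.44 between the highest Treg and the lowest Teff value. Over all genes tested, 0.957% had every Treg array below every Teff array. The 3 CKO Treg arrays (mean 5.78 ± 0.63) also lay below the 3 Ctrl Treg arrays (6.96 ± 0.29), by −1.18 ± 0.83 on average (SE, limma adjusted p = 1.00, 95% interval −3.02 to 0.67). Il13 was the only 1 of 6 members whose genotypes did not overlap in Treg, against 12.3% of all genes. In Teff the genotypes overlapped (means 9.21 ± 1.63 and 9.34 ± 1.52) and differed by 0.13 ± 0.83.

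Il3 read 10.99, 10.53 and 11.25 in Ctrl Treg and 11.17, 12.31 and 11.29 in CKO Treg. It read 12.30, 13.99 and 12.27 in Ctrl Teff and 12.36, 13.59 and 14.18 in CKO Teff. Unlike the type 2 cytokines, Il3 peaked on CKO Teff 3, the array lowest for Il4, Il5, Il13 and Il6 in its group. A single Treg array, CKO Treg 2, reached into the Teff range, by 0.04. Means rank as Ctrl Treg (10.92 ± 0.37), CKO Treg (11.59 ± 0.62), Ctrl Teff (12.85 ± 0.98) and CKO Teff (13.38 ± 0.93), and each of these groups overlapped the next. The genotype differences were 0.67 ± 0.55 in Treg and 0.52 ± 0.55 in Teff (SE, limma adjusted p = 1.00 for both).

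Il6 was near the array median in 3 of the groups: 5.28, 4.41 and 4.93 in Ctrl Treg, 5.04, 4.61 and 4.86 in CKO Treg and 5.09, 5.53 and 4.52 in Ctrl Teff. In CKO Teff it read 10.21, 8.14 and 5.27. It was the only member below the median on any array, and lay above it on 9 of 12. The other group means, 4.87 ± 0.44, 4.84 ± 0.21 and 5.05 ± 0.51 in Ctrl Treg, CKO Treg and Ctrl Teff, had overlapping arrays. The CKO Teff mean of 7.87 ± 2.48 comes from arrays 1 and 2, since array 3 lay within the Ctrl Teff range. CKO minus Ctrl in Teff was 2.83 ± 0.92 (SE, 95% interval 0.78 to 4.87, unadjusted p = 0.0114, limma adjusted p = 1.00). In Treg the difference was −0.03 ± 0.92.

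Gata3 read 9.70, 9.67 and 8.94 in Ctrl Treg and 9.12, 9.82 and 9.38 in CKO Treg. It read 8.13, 8.92 and 7.71 in Ctrl Teff and 7.51, 8.53 and 7.58 in CKO Teff. Every Treg array was above every Teff array, though only by 0.02 at the closest point, between Ctrl Treg 3 and Ctrl Teff 2. Of all genes tested, 1.41% had every Treg array above every Teff array. The means were 9.44 ± 0.44 and 9.44 ± 0.36 in Ctrl and CKO Treg, then 8.25 ± 0.61 and 7.87 ± 0.57 in Ctrl and CKO Teff. Genotypes overlapped in both cell types, with differences of 0.00 ± 0.37 in Treg and −0.38 ± 0.37 in Teff (SE, limma adjusted p = 1.00 for both).

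The SD between replicates was larger in Teff than in Treg for each member in both genotypes. In CKO Teff the SDs were 2.46 for Il4, 2.39 for Il5 and 2.48 for Il6, each larger than in 99.9% of the genes tested in that group. Il13 followed with 1.52 (99.1%) and Il3 with 0.93 (96.1%), while Gata3 had 0.57 (84.8%). In Ctrl Teff, Il13 had the largest SD of the members, 1.63, wider than in 99.4% of genes, and Il6 had 0.51 (84.2%). Across genes the 95th percentile of the SD was 0.855 in CKO Teff and 0.780 in Ctrl Teff, against 0.586 in CKO Treg and 0.577 in Ctrl Treg. In Treg, the SD of Il4 in CKO (0.95) exceeded that of 99.1% of genes, Il5 in Ctrl (0.75) 97.8%, Il13 in CKO (0.63) 96.2% and Il3 in CKO (0.62) 96.0%. Il6 in Ctrl had an SD of 0.51 in Teff and 0.44 in Treg. Ctrl Teff 2 was the highest Ctrl Teff array for all 6 members.

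**Figure D2:**
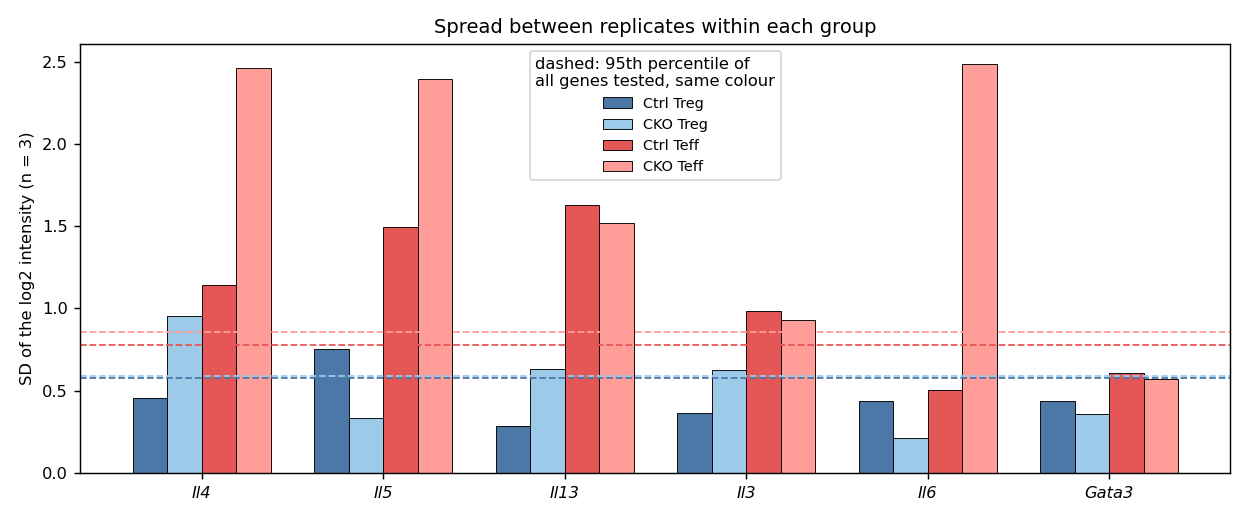
SD of the log2 intensity over the 3 arrays of each group (bars) for the 6 members, with dashed lines at the 95th percentile of all genes in the same group. Il4, Il5 and Il6 of CKO Teff stand near 2.4 to 2.5, whereas Gata3 stays below the line in every group.

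Arrays of the same number also differed in the sign of the genotype difference. In Teff, Il4 was higher in CKO by 2.80 in pair 1 and 0.88 in pair 2, and was −0.95 in pair 3. Il5 gave 2.68, 2.11 and −0.30, and Il13 gave 1.35, −0.43 and −0.53. Il6 alone among the cytokines had 1 sign in all 3 Teff pairs, with 5.12, 2.61 and 0.75. In Treg, Il13 was lower in CKO in each pair, by −1.29, −0.46 and −1.77. The other type 2 cytokines had mixed signs there, with 0.19, −0.19 and −2.13 for Il4 and −2.08, −0.77 and 0.07 for Il5. Il3 gave 0.18, 1.78 and 0.04 in Treg, positive in each pair, but 0.06, −0.39 and 1.91 in Teff. Il6 stayed within 0.24 of 0 in every Treg pair (−0.24, 0.21 and −0.06). Gata3 was lower in CKO in all 3 Teff pairs, by −0.62, −0.39 and −0.14, and gave −0.59, 0.15 and 0.44 in Treg.

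Loss of Blimp1 was the question of the comparison of CKO with Ctrl. The fit used first has no term for pairs of arrays. In Treg, 0 of 6 members were called, where 0.0990% of all genes were, and none reached an unadjusted p under 0.05 (5.33% of genes did). In Teff, 0 of 6 were called, beside 0.0165% of all genes, none separated the genotypes without overlap (6.77% of genes did), and only Il6 reached an unadjusted p under 0.05, as 4.17% of genes did. Same-numbered Ctrl and CKO arrays deviated together, and with the pair as a term the count of members called stayed 0 in both cell types. With that term, Il13 in Treg had an adjusted p of 0.164 (−1.18 ± 0.36) and Il6 in Teff 0.124 (2.83 ± 0.62, SE, limma). Il5 in Teff had 0.376 (1.50 ± 0.54) in the same fit. The pair term raised the number of all genes called from 12 to 264 in Treg and from 2 to 12 in Teff. Without the pair term, the interaction, the Treg genotype difference less the Teff one, was called for no member (0.0165% of genes were). No member had an unadjusted p under 0.05 for it in that fit (3.48% of genes did). The interaction was −2.86 ± 1.31 for Il6 and −2.42 ± 1.49 for Il5 (SE, limma adjusted p = 1.00 for both). With the pair term it was −2.86 ± 0.88 for Il6 and −2.42 ± 0.77 for Il5 (SE, limma adjusted p = 0.256 and 0.265). Unadjusted p-values of the fit with pairs are not given here.

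The Il6 difference in Teff rested on which CKO array was kept. Without CKO Teff 3 it was 4.13 with a limma adjusted p of 0.0100, in a fit that called 52 of all genes against 2 on all arrays. Without CKO Teff 1 it was 1.66 (adjusted p = 1.00). Over the alternatives that leave at least 2 arrays a group, its adjusted p ranged from 0.0100 to 1.00. Without CKO Teff 1 and 2, with 1 CKO Teff array left, the Il6 difference was 0.22 and the Il6 interaction −0.25. The Teff genotype differences of Il4, Il5 and Il13 were then −1.92, −0.96 and −1.53, the opposite sign to that on all arrays.

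**Figure D3:**
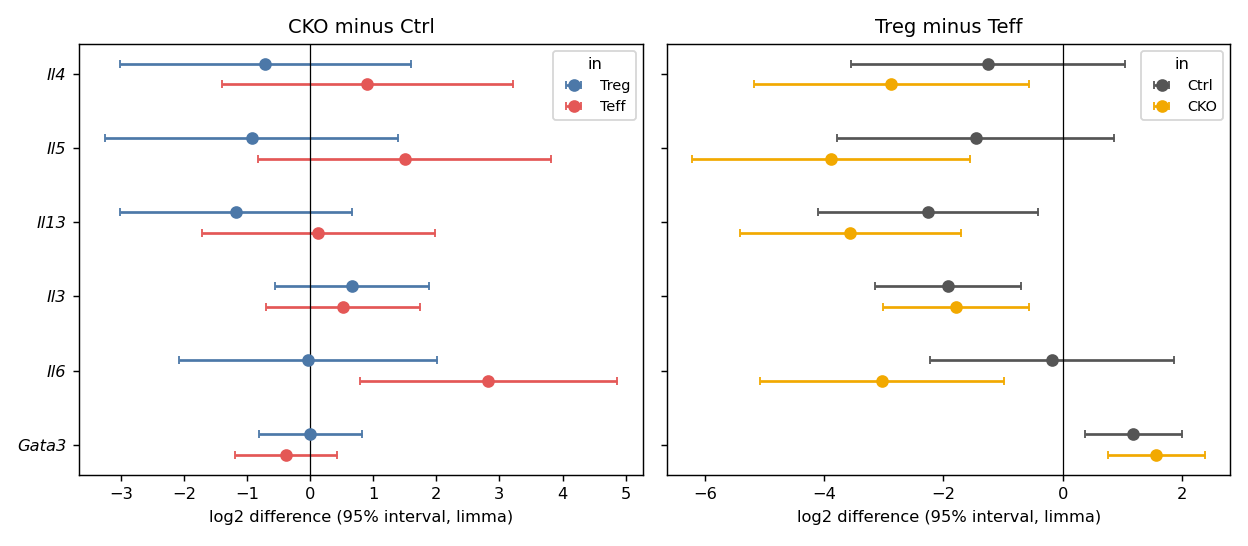
Log2 differences with 95% intervals from limma for CKO minus Ctrl (left, in Treg and in Teff) and Treg minus Teff (right, in Ctrl and in CKO). On the left only the Il6 interval in Teff leaves out 0; on the right all 6 intervals do so in CKO and those of Il13, Il3 and Gata3 in Ctrl, and none of those shown passed after adjustment over all genes.

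In CKO, Treg minus Teff was larger in size than either genotype difference for all 6 members. In Ctrl that did not hold for Il5 and Il6. In Ctrl, Treg minus Teff was −2.25 ± 0.83 for Il13 (4.76-fold lower, adjusted p = 0.340), −1.93 ± 0.55 for Il3 (adjusted p = 0.178) and 1.18 ± 0.37 for Gata3 (2.27-fold higher, adjusted p = 0.222, SE and limma throughout). Il4 (−1.25 ± 1.04), Il5 (−1.46 ± 1.05) and Il6 (−0.18 ± 0.92) had intervals that held 0. Among all genes 1.01% were called, and 0 of the 6 members. Without overlap between the groups were 3 of 6 members (Il13, Il3 and Gata3), against 14.3% of genes, and the same 3 had an unadjusted p under 0.05 (10.4% of genes).

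In CKO all 6 members had the same direction as in Ctrl. The sizes were larger for the type 2 cytokines and Il6, although the interaction was called for none of them. Treg minus Teff was −2.87 ± 1.04 for Il4, −3.88 ± 1.05 for Il5 and −3.56 ± 0.83 for Il13, with adjusted p of 0.331, 0.166 and 0.114. For Il3 it was −1.79 ± 0.55, for Il6 −3.03 ± 0.92 and for Gata3 1.57 ± 0.37, with adjusted p of 0.236, 0.230 and 0.114 (SE, limma). None of the 6 was called, beside 0.355% of all genes, while all 6 had an unadjusted p under 0.05 (10.8% of genes). In CKO, 5 of 6 did not overlap, Il4 being the exception, against 13.7% of genes. Without CKO Teff 3, Il4 (−4.29), Il5 (−5.11), Il13 (−4.39) and Il6 (−4.34) were called, with adjusted p of 0.0113, 0.0160, 0.0214 and 0.00411 by limma. That fit called 259 of the 12119 genes, against 43 on all arrays. Without CKO Teff 1 and 2, with 1 CKO Teff array left, the differences were −0.041 for Il4, −1.43 for Il5, −1.90 for Il13 and −0.43 for Il6, and −2.59 for Il3 and 1.86 for Gata3. Over the alternatives that leave at least 2 arrays a group, the adjusted p ranged from 0.00696 to 0.801 for Il4, 0.0160 to 0.456 for Il5, 0.0148 to 0.368 for Il13, 0.00411 to 0.577 for Il6 and 0.0139 to 0.397 for Gata3.

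With both genotypes averaged, a fit chosen after seeing the data that treats the pairs as a random term, Treg minus Teff was −2.91 ± 0.65 for Il13 (adjusted p = 0.0607) and 1.38 ± 0.29 for Gata3 (adjusted p = 0.0516). Il5 (−2.67 ± 0.85), Il3 (−1.86 ± 0.52), Il4 (−2.06 ± 0.89) and Il6 (−1.60 ± 0.82) had adjusted p of 0.214, 0.151, 0.421 and 0.541 (SE, limma). No member was called, beside 1.23% of all genes. Leaving out CKO Treg 1 or Ctrl Treg 3 brought Gata3 to 0.0469 or 0.0409, and leaving out CKO Teff 3 brought Il5, Il13 and Il6 to 0.0287, 0.0222 and 0.0461. That last fit called 236 of all genes, against 149 on all arrays. Without CKO Teff 1 and 2 the differences were −2.31 for Il13, −2.40 for Il3 and 1.40 for Gata3, and −0.88 for Il4, −1.60 for Il5 and −0.43 for Il6. The last 3 were nearer to 0 than on all arrays by a factor of over 1.5.

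Some markers of basophils and mast cells were high on CKO Teff 1 and 2. Of 18 listed markers 12 passed the filter, and 7 of these were higher on both arrays than on any of the other 10. The share of all genes with that pattern was not computed, so the count is a description only. The mean of the 12 markers ranged from 5.34 to 8.51 in CKO Teff and 5.01 to 6.24 in Ctrl Teff. In Treg it ranged from 5.07 to 5.75 in Ctrl and 5.01 to 5.59 in CKO. Mcpt8, a basophil protease, read 10.85, 10.18 and 5.12 on CKO Teff 1 to 3 and no higher than 5.68 on the other 9 arrays. Fcer1a, the IgE-binding chain of the high-affinity IgE receptor, read 8.93, 9.22 and 4.61 on CKO Teff. The mast cell and basophil protease Cpa3 read 10.34, 9.94 and 4.65 there, and 6.06 on Ctrl Teff 2. Hdc and Prss34, also among the 7, were well above the median on other arrays too. Hdc read 14.19 and 12.94 on CKO Teff 1 and 2, 10.82 on Ctrl Teff 2 and 10.20 on Ctrl Treg 3. Prss34 read 13.96 and 12.85 on CKO Teff 1 and 2, 8.35 on Ctrl Teff 2 and 7.54 on Ctrl Treg 3. Of the 5 other markers, Tpsab1 (4.74 and 4.58) and Hpgds (4.55 and 4.47) were near the array median on CKO Teff 1 and 2, and Cma1 was high on CKO Teff 2 alone (6.35, against 4.64 on CKO Teff 1). Ms4a3 (6.34 and 6.30) was higher on Ctrl Teff 2 (6.94), and Kit (7.68 and 8.75) was 8.24 there. Ms4a2, another chain of the IgE receptor, and the mast cell genes Mcpt1, Mcpt2, Mcpt4, Tpsb2 and Slc18a2 did not pass the filter, and Ms4a2 lay between 4.21 and 4.64 on all 12 arrays.

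Il4 and Il6 had their 2 highest values on the arrays with the high basophil and mast cell markers. Il5 was highest on CKO Teff 2, followed by Ctrl Teff 2, and Il13 on Ctrl Teff 2, while Il3 and Gata3 had their highest values on other arrays. The mean of 7 CD8 and natural killer cell markers, of 9 listed, was 7.24, 8.60 and 6.20 on CKO Teff 1 to 3. That mean lay between 6.02 and 6.18 in Ctrl Teff and between 5.32 and 5.85 in Treg. The 7 markers differed, so it does not describe each of them. Over the 12 arrays Klrb1c did not exceed 4.80, and Cd8b1 lay between 8.45 and 10.02. Klra7, Klre1, Klrd1, Klra8 and Eomes had highest values of 10.84, 10.33, 10.26, 8.60 and 6.92 on any array. Which arrays held these values is not given here. Cd8a and Ncr1 did not pass the filter. Neutrophil markers (11 of 12) ranged from 6.03 to 9.78 over the 12 arrays and were highest on Ctrl Teff 2. The part of these markers in the cytokine signals was not tested. Without CKO Teff 1 and 2 the Treg minus Teff difference over both genotypes was −0.88 for Il4, beside −2.06 on all arrays, and −1.60 for Il5, beside −2.67. It was −0.43 for Il6, beside −1.60, and −2.31 for Il13, beside −2.91. For Il3 it was −2.40, beside −1.86, and for Gata3 1.40, beside 1.38.

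**Figure D4:**
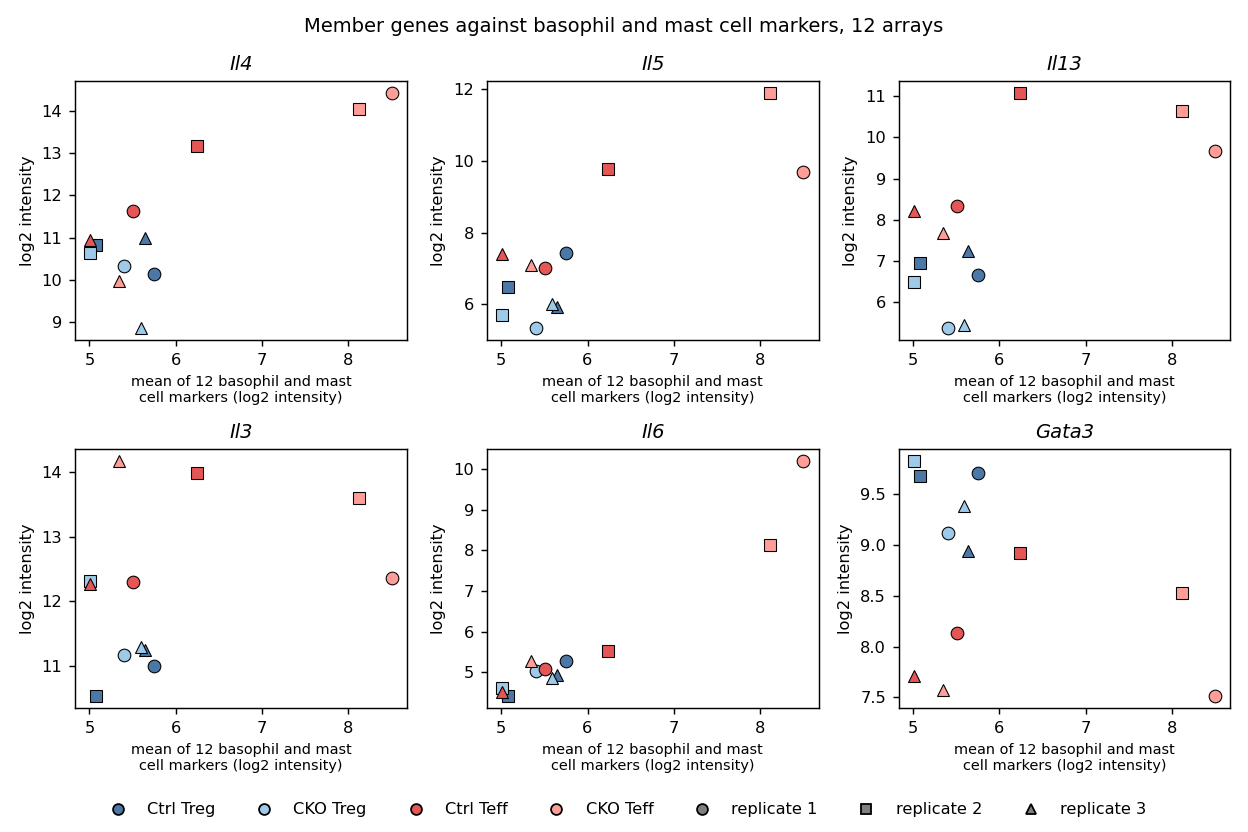
Log2 intensity of each member (vertical) against the mean of 12 basophil and mast cell markers (horizontal) on each of the 12 arrays; colours give the group and symbols the replicate number. CKO Teff 1 and 2, at 8.51 and 8.12, lie apart from the other 10 arrays and are the highest for Il4 and Il6, but not for Il3 or Gata3.

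Over the 12 arrays Il5 and Il13 had a Pearson r of 0.904 and Il4 and Il13 0.885. Gata3 had negative r with the 3 type 2 cytokines over the 12 arrays, −0.42 with Il4, −0.40 with Il5 and −0.50 with Il13, while within the 6 Teff arrays these were 0.38, 0.53 and 0.76. Within the 6 Treg arrays Il4 and Il5 had an r of −0.05, and Il4 and Il13 0.73. These values describe arrays that share groups, pairs and 2 outlying samples, and no p was computed.

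The genes with the most similar profile were found by Pearson r over the 12 arrays, then again without the 2 arrays farthest from the member's median. For Gata3 the nearest was Ccr8, a chemokine receptor of Treg and T helper 2 cells, at 0.946 and then 0.915, followed by Matk (0.933), Scap (0.919) and Itgae (0.917). Ccr8 read 10.29 ± 0.21 and 9.68 ± 0.24 in Ctrl and CKO Treg and 6.95 ± 1.44 and 6.75 ± 1.34 in Ctrl and CKO Teff (SD, n = 3). For Il3 the nearest were Taf1d (0.953, then 0.936), Bhlhe40 (0.894, then 0.881), Ric1 (0.891) and Adprm (0.889). For Il6 they were Itga2b (0.987, then 0.694), Cyp11a1 (0.982, then 0.376), Gata2 (0.975, then 0.807) and Slc7a8 (0.975, then 0.892). The 2 arrays left out for Il6 were CKO Teff 1 and 2, and without them the r with Cyp11a1 was the lowest of the 4.

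For Il4 the nearest genes were Tollip (0.939, then 0.858), Pik3ap1 (0.928), Figla (0.922) and Mier3 (0.922). For Il5 they were Acap3 (0.939, then 0.799), Mbnl2 (0.934), Vegfa (0.932) and Tm6sf1 (0.929), and for Il13 Arap2 (0.956, then 0.936), Kdm7a (0.954), Usp38 (0.951) and Rel (0.947), an NF-kappaB subunit. Within the 6 Teff arrays alone, the nearest gene was Zmynd12 for Il4 (0.997), Slc25a36 for Il5 (0.992) and Prrc2a for Il13 (0.998). There it was Gpnmb for Il3 (0.997), Itga2b for Il6 (0.994) and Ehd1 for Gata3 (0.994). The nearest gene over 12 arrays was also the nearest within Teff for Il6 alone. Each of these is the highest r among all genes tested over only 6 points, and is given as a description.

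The cluster on chromosome 11 holds 13 protein-coding genes from Kif3a to Il3 in RefSeq order, of which 12 were tested. Its cytokine genes had negative Treg minus Teff differences in both genotypes, while most of the genes between them lay near 0. Csf2, which encodes GM-CSF, read 10.30, 9.74 and 12.15 in Ctrl Treg, 9.69, 11.20 and 10.47 in CKO Treg, 13.23, 14.03 and 12.96 in Ctrl Teff and 12.63, 14.10 and 13.54 in CKO Teff. All its Treg values were below all its Teff values. Treg minus Teff was −2.68 ± 0.62 in Ctrl and −2.97 ± 0.62 in CKO (SE, limma adjusted p = 0.0900 and 0.0752). Kif3a, a kinesin motor gene, gave 0.52 ± 0.29 in Ctrl and 0.21 ± 0.29 in CKO, and the DNA repair gene Rad50, between Il13 and Il5, gave 0.12 ± 0.23 and 0.22 ± 0.23. Irf1, an interferon response factor, gave 1.22 ± 0.55 and 0.28 ± 0.55, and P4ha2, a collagen-modifying enzyme, gave −0.07 ± 0.15 and −0.40 ± 0.15. Of the 12 tested genes on the list of cluster neighbours, which leaves out the members and reaches further along the chromosome, 0 were called in any comparison by limma. Before adjustment, p was under 0.05 for 1 gene for Treg against Teff in Ctrl, 2 genes in CKO and 0 between genotypes, where 10.4%, 10.8%, 5.33% (Treg) and 4.17% (Teff) of all genes were. Their median Treg minus Teff difference was −0.05 in Ctrl and 0.01 in CKO, beside 0.01 and 0.03 over all genes.

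**Figure D5:**
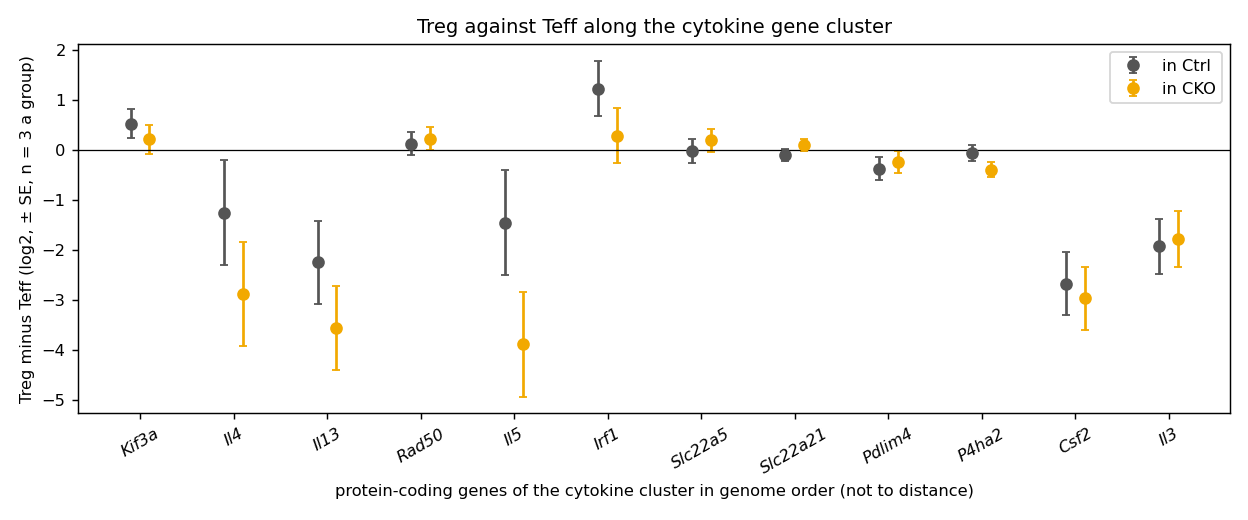
Treg minus Teff difference (log2, limma estimate ± SE, 3 arrays a group) in Ctrl and CKO for the 12 tested genes of the cytokine cluster in genome order, not to distance. Il4, Il13, Il5, Csf2 and Il3 are all below 0 in both genotypes, whereas Kif3a, Rad50 and the other genes lie between −0.40 and 1.22.

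Upstream of the members, 21 of 26 listed regulators of T helper 2 cells were tested and 0 were called in any comparison by limma. Before adjustment, 4 of them had p under 0.05 between genotypes in Treg and 3 in Teff, and 7 did so for Treg against Teff in Ctrl, with 5 in CKO. Over all genes these shares were 5.33%, 4.17%, 10.4% and 10.8%. Their median Treg minus Teff difference was −0.05 in Ctrl and −0.15 in CKO. Bhlhe40, a transcription factor that supports cytokine production in effector T cells, had Treg minus Teff differences of −0.997 ± 0.24 in Ctrl and −0.77 ± 0.24 in CKO (SE, limma adjusted p = 0.104 and 0.240). Notch1, a receptor that can promote Gata3, had CKO minus Ctrl differences of −1.0 ± 0.25 in Treg and −1.04 ± 0.25 in Teff (adjusted p = 0.290 and 0.727). Batf, an AP-1 factor of cytokine-producing T cells, was 0.90 ± 0.22 higher in Treg than in Teff of CKO (adjusted p = 0.133).

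Of 10 listed surface receptors of T helper 2 cells 7 were tested, with 0 called in any comparison by limma and 2 at an unadjusted p under 0.05 for Treg against Teff in each genotype (10.4% and 10.8% of all genes in Ctrl and CKO). Ccr8 had Treg minus Teff differences of 3.34 ± 0.71 in Ctrl and 2.93 ± 0.71 in CKO (SE, limma adjusted p = 0.0653 and 0.124). The chemokine receptor Ccr4 gave 0.57 ± 0.19 and 1.01 ± 0.19 (adjusted p = 0.286 and 0.0595). Havcr1, a T cell costimulatory receptor, was near the array median in every group (means 4.56 to 4.75). Ccr8 and Ccr4 had the direction of Gata3 and not that of the type 2 cytokines, although none passed the test. The list as a whole had no common direction, with 4 of the 7 receptors higher in Treg and 3 lower in each genotype. Ccr4 was dim in Teff, with means of 4.96 in Ctrl and 4.81 in CKO.

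Among 16 listed secreted partners 8 were tested, and 1 was called in each of 2 comparisons. These were genotype in Treg, where 0.0990% of all genes were called, and Treg against Teff in Ctrl, where 1.01% were. Before adjustment, limma p was under 0.05 for 3 of the 8 between genotypes in Treg and 4 in Teff. For Treg against Teff the counts were 3 in Ctrl and 4 in CKO. Over all genes these shares were 5.33%, 4.17%, 10.4% and 10.8%. Il10, an inhibitory cytokine, was lower in CKO Treg than in Ctrl Treg by −5.24 ± 0.49 (limma adjusted p = 0.00241), with 7.17, 6.85 and 6.94 against 12.53, 11.62 and 12.52. In the same Treg comparison Il4, Il5 and Il13 had differences of −0.71, −0.93 and −1.18. Tnfsf11, which encodes RANKL, was lower in Ctrl Treg than in Ctrl Teff by −2.18 ± 0.32 (adjusted p = 0.0106, SE, limma). The median of the 8 was −0.15 for Treg minus Teff in Ctrl and −0.67 in CKO.

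Of 10 listed receptor chains for these cytokines 8 were tested, and 0 were called in any comparison by limma. Before adjustment, p was under 0.05 for 1 chain between genotypes in Treg, 1 in Teff, 0 for Treg against Teff in Ctrl, and 1 chain in CKO, beside 5.33%, 4.17%, 10.4% and 10.8% of all genes. Il4ra, Il13ra1, Il5ra and Csf2rb were dim, with group means between 4.57 and 4.98. Il3ra, the chain that binds IL-3, had means of 6.46 and 6.20 in Ctrl and CKO Treg and 5.74 and 6.62 in Ctrl and CKO Teff. Csf2rb2, the mouse beta chain that serves IL-3 alone, read 6.29, 6.50 and 4.87 in CKO Teff and 4.59, 4.97 and 4.56 in Ctrl Teff. Its CKO arrays 1 and 2 were high, as they were for Il6 and the basophil and mast cell markers, and the difference was 1.18 ± 0.35 (SE, limma adjusted p = 0.983). Il6st, the signalling chain of the IL-6 receptor, had CKO minus Ctrl differences of −1.01 ± 0.41 in Treg and −0.73 ± 0.41 in Teff (adjusted p = 0.849 and 1.00). Il6ra, the IL-6-binding chain, had means of 5.83 and 5.72 in Ctrl and CKO Treg and 5.21 and 4.92 in Ctrl and CKO Teff.

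All 16 listed genes that signal below these receptors were tested. Socs2, a feedback inhibitor of cytokine signalling, was higher in Ctrl Treg than in Ctrl Teff by 2.04 ± 0.33 (limma adjusted p = 0.0172). Of all genes 1.01% were called in that comparison, and no other of the 16 was called in any. The means of Socs2 were 10.37 ± 0.23 and 8.50 ± 0.49 in Ctrl and CKO Treg and 8.33 ± 0.57 and 8.05 ± 0.44 in Ctrl and CKO Teff (SD, n = 3). The median CKO minus Ctrl difference of the 16 genes in Treg was −0.27, beside 0.00 over all genes, and 13 of 16 were below 0, as were 49.7% of all genes. In Teff their median was 0.04, beside −0.02 over all genes, and 7 of 16 were below 0 (55.8% of all genes).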

How the data were processed

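Total RNA of each sample was hybridised to 1 Illumina mouse array. The authors deposited 1 log2 intensity for each probe and array. Tools in the submitters' processing notes are GenomeStudio and limma (3.30.11). How background was corrected and arrays were normalized is not given in the sources used. Of 31641 probes, 28197 carry 1 gene symbol, 5 carry several and 3439 carry none. Probes brighter than the array median on 3 or more of the 12 arrays were kept, and a gene was its kept probe with the highest mean, which left 12119 genes.

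Group means of all 12 arrays were fitted by lmFit and eBayes of limma 3.58.1 (R 4.3.3, 10.5 total degrees of freedom, two-sided, Benjamini-Hochberg adjusted p under 0.05). The procedure was tested on simulated data. Differences are log2. An unadjusted p comes from the same limma fit.

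The members, lists and tests were chosen with earlier results of these data known. Named genes were the members, every called gene of a list or else its 3 with the smallest p, Csf2, the receptor chains, and the 4 nearest genes by correlation. Other marker and list genes were named after their values were seen.

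Residuals of same-numbered Ctrl and CKO arrays correlated at 0.519 to 0.589 in Treg and 0.348 to 0.737 in Teff, and numbers were taken to pair genotypes. Between same-numbered Treg and Teff arrays the correlations ranged from −0.266 to 0.325, and numbers were not taken to pair cell types. The value of 0.325 is close to the 0.348 of a Teff pair. Differently numbered arrays were not compared, so both readings are assumptions. Alternatives covered normalization, filter, probe summary, variance moderation, array weights, blocks and left-out arrays.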

Additional observations from a re-analysis of the deposited data

How the results depend on the processing

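Of 1123 alternative values of single members, 1075 kept their direction and 48 reversed, and 27 gained a call. The count does not measure stability, because many settings leave a member's difference of group means unchanged. These are blocks on all arrays, variance moderation, probe summary, and left-out arrays of groups not compared. Quantile normalization, median centring, no filter, probe averaging and variance moderation with trend and robust settings called no member in any comparison. The stricter filter removed Il6.

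With array weights 4 members were called for Treg against Teff in CKO (Il5, Il13, Il6 and Gata3), and 245 of all genes, against 43. Leaving out arrays called 0 to 4 there, 0 to 1 for genotype in Teff, 0 for genotype in Treg, for the interaction and for Treg against Teff in Ctrl, and 0 to 3 with genotypes averaged. For Treg against Teff in CKO the 4 were Il4, Il5, Il13 and Il6 without CKO Teff 3. The fixed replicate block within cell type changed no call of a member, and was not run for Treg against Teff, which it cannot test. The fixed replicate block without Teff replicate 1 called 1 member in Treg (Il13, adjusted p = 0.0437). The fixed replicate block without Teff replicate 3 called 1 in Teff (Il6, 0.0145) and 2 for the interaction (Il5, 0.0442, and Il6, 0.0399). A replicate block by number across all groups, added although numbers were not taken to pair cell types, called 1 in Ctrl (Gata3, 0.0250) and 2 in CKO (Il13, 0.0270, and Gata3, 0.0139). The cause was not tested. In these fits the all-gene counts were 296 (Treg), 123 (Teff), 119 (interaction), 333 (Ctrl) and 250 (CKO).

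Leaving out arrays moved the genotype difference without a change of sign from −1.16 to −0.0015 for Il4 and from −1.43 to −0.35 for Il5 in Treg, and from 0.33 to 2.72 for Il5 in Teff. Differences that crossed 0 when arrays were left out were, for genotype in Treg, Il6 (−0.26 to 0.17) and Gata3 (−0.25 to 0.30). In Teff they were Il4 (−0.038 to 2.32), Il13 (−0.53 to 1.07) and Il3 (−0.17 to 1.09). For Treg against Teff in Ctrl it was Il6 (−0.44 to 0.066), and for the interaction Il3 (−0.42 to 0.84). Array weights gave 0.029 for Il6 in Treg. The fixed replicate block gave, for genotype in Treg, 0.071 for Il6 without Treg replicate 1, and −0.071 and −0.22 for Gata3 without Treg replicates 2 and 3. In Teff it gave −0.038 for Il4 and −0.48 for Il13 without replicate 1, and −0.17 for Il3 without replicate 3. For the Il3 interaction the replicate block gave −0.41 without Treg replicate 2 and −0.089 and −0.31 without Teff replicates 1 and 2.

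Both added settings without 2 or more Teff arrays leave 1 CKO Teff array and give values with no test. Without CKO Teff 1 and 2 the Teff genotype differences were −1.92 (Il4), −0.96 (Il5) and −1.53 (Il13), and the interactions 1.21 (Il4), 0.032 (Il5), 0.35 (Il13) and −0.66 (Il3). Without both Teff arrays numbered 1 and both numbered 2 the Teff genotype differences were −0.95 (Il4), −0.30 (Il5) and −0.53 (Il13), Il6 for Treg against Teff in Ctrl was 0.35, and the interactions were 0.24 (Il4) and −1.24 (Il3).

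The number of all genes called moved more than that of the members. It was 3 to 318 (12 on all arrays) for genotype in Treg, 0 to 123 (2) in Teff, 10 to 333 (123) for Treg against Teff in Ctrl, 0 to 440 (43) in CKO, 0 to 119 (2) for the interaction and 80 to 236 (149) with genotypes averaged.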
